A study of Homo sapiens with 9 samples.

Results

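The genes examined here were the splicing factors and RNA helicases of WI-38, a diploid fibroblast line from human fetal lung, compared between a control group and a doxorubicin group. They were chosen by gene symbol alone. A gene was a member when its symbol began with SRSF, HNRNP, SF3A, SF3B, SNRP, SNRNP, PRPF, RBM, DDX, DHX, LSM, U2AF, U2SURP, LUC7L, SRRM, TRA2, PTBP, CELF, MBNL or QKI, with a number after those names that take one and with no hyphen. This gave 80 of the 6499 genes in the deposited table, of which 79 are protein coding and 1, DDX12P, is a pseudogene. The GENCODE 29 annotation has 212 protein-coding genes that follow the same rule, and the other 133 were not analysed here.

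All cells were at population doubling 30. The control group received DMSO in both steps. The doxorubicin group was kept in 1 μM doxorubicin for 12 h, after which its medium held DMSO for 48 h, so that both groups carried DMSO in the second step. Doxorubicin is an anthracycline that poisons topoisomerase II and damages DNA, and it is a standard way to bring fibroblasts into premature senescence. Each group had 3 libraries of total RNA. The series also holds 3 libraries of cells given oridonin after doxorubicin, which were not analysed here. Nothing in the labels says that the 3 libraries of a group came from separate cultures, so the p-values measure the spread between these libraries, which may be technical.

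Pre-mRNA splicing is carried out by the spliceosome, a machine of small nuclear RNAs and proteins that is assembled anew on every intron. The U1 particle and U2AF mark the ends of the intron, the U2 particle with its SF3A and SF3B subunits takes the branch site, and the U4/U6.U5 tri-snRNP, to which several PRPF proteins belong, brings the catalytic RNAs in. The Sm and LSM proteins form rings around the small nuclear RNAs, and DEAD-box (DDX) and DEAH-box (DHX) helicases drive the rearrangements. SR proteins and hnRNPs bind the pre-mRNA itself and shift the choice of splice sites, SR proteins mostly towards exon inclusion and hnRNPs often against it. Several DDX and DHX proteins work outside splicing, in ribosome assembly, translation, mitochondria or DNA repair, and membership by symbol does not separate these roles.

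The values were read as TPM, a transcript abundance divided by transcript length and library total, so that levels of different genes can be set side by side. The table lists only genes that had passed the authors' own thresholds in this same comparison. No call below is therefore independent of that choice, and the counts over the members are given beside those over all genes tested. TPM values of a whole library add up to a fixed total, of which the listed genes held 54.3% to 54.8% in the control libraries and 58.6% to 60.0% in the doxorubicin libraries. On log2(TPM + 1), Pearson's r across genes lay between 0.992 and 0.995 within a group and between 0.935 and 0.958 between groups. The read depth of each library is unknown, so no counting interval is given. Of 17 fibroblast markers 10 were listed, with summed levels from 11992 to 12369 TPM in the control group and from 10296 to 12561 TPM in the doxorubicin group. Within that sum 9 of the 10 fell, among them COL3A1 to 35.7%, PDGFRA to 51.6% and COL1A1 to 68.8% of the control mean, and FN1 alone rose, from 4520 to 6220 TPM. Of 5 epithelial markers 3 were listed (KRT8, KRT18 and KRT19), with sums from 135 to 150 TPM and from 283 to 307 TPM, led by KRT19 at 107 against 246 TPM. Of 4 blood cell markers CD68 and PTPRC were listed, with sums from 45.02 to 48.97 TPM and from 87.4 to 93.7 TPM, and PTPRC was below 1 TPM in all 6 libraries. None of 4 endothelial markers was listed. The part of these marker shifts in the results below was not tested. In bulk RNA, fewer cells of a type and less RNA per cell cannot be told apart.

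Compared with the control group, most of the listed splicing factors and RNA helicases were lower in the doxorubicin group. A gene was tested when its mean over the 6 libraries was at least 1 TPM, which 77 of the 80 members and 5721 of all 6499 listed genes met, and CELF6, RBM44 and DDX12P did not. With limma on log2(TPM + 1), 58 of 77 members were lower at an adjusted p under 0.05 (75.3%, against 48.7% of all genes tested) and 7 were higher (9.09%, against 28.2%). With 3 libraries against 3, an exact permutation test of a single gene cannot go below p = 0.1, the value of every member whose groups did not overlap. The median log2 fold change was -0.52 over the members and -0.28 over all genes tested, so the members lay 0.23 below the genes tested as a whole. That gap depends on the filter. The medians were -0.51 and 0.05 with a minimum of 5 TPM, and -0.51 and -0.15 without a filter. The groups did not overlap and the doxorubicin group was lower in 59 members (76.6%, against 48.4% of all genes), and it was higher without overlap in 10 (13.0%, against 32.3%). With the study's rule of a fold change over 1.2 and an unadjusted p under 0.05, applied to this fit, 56 members were lower (72.7%, against 49.0%) and 5 were higher (6.49%, against 23.4%). Summed over all 80 members, the level was 8019, 8194 and 7794 TPM in the 3 controls and 6204, 5957 and 6358 TPM after doxorubicin, 77.1% of the control mean.

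**Figure D1:**
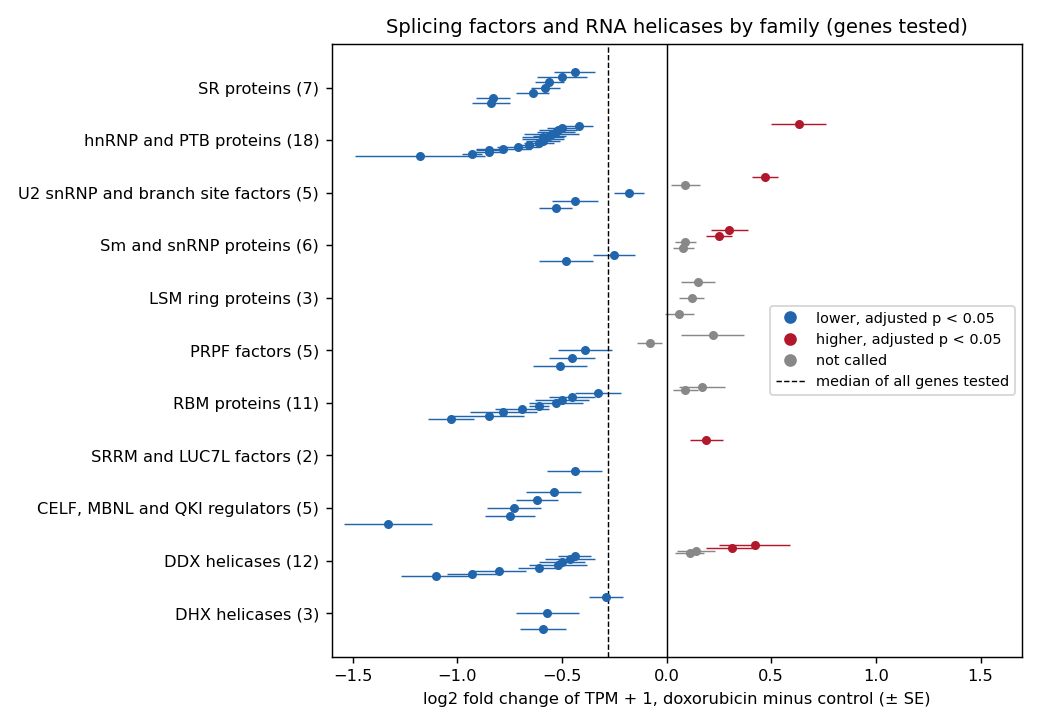
Each point is 1 of the 77 members tested, placed by family on the vertical axis and by its log2 fold change of TPM + 1 (doxorubicin minus control) on the horizontal axis, with its SE as a bar and colour for the call. The 7 SR proteins and 17 of 18 hnRNP and PTB proteins lie left of the dashed line at the median of all genes tested (-0.28), while the 3 LSM ring proteins lie right of zero.

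The counts are given by family, to be read against 48.7% lower and 28.2% higher over all genes tested. They cover listed genes only, a part of each family. The annotation has 14 SR, 29 hnRNP and PTB, 10 CELF, MBNL and QKI, 37 RBM and 19 Sm and snRNP protein-coding genes. It has 13 LSM, 14 U2 and branch site, 13 PRPF, 8 SRRM and LUC7L, 39 DDX and 16 DHX genes. Some families are known for binding the pre-mRNA and regulating the choice of splice sites. Of these, all 7 listed SR proteins, 17 of 18 listed hnRNP and PTB proteins and all 5 tested CELF, MBNL and QKI regulators fell. Of the RBM proteins, a mixed group, 9 of 11 tested fell. Of 6 Sm and snRNP proteins 2 fell, 2 rose and 2 were not called, and none of the 3 LSM ring proteins was called. Among factors of the U2 particle and the branch site, 3 of 5 fell and 1 rose, and 3 of 5 PRPF factors fell. For the helicases, 8 of 12 tested DDX members fell and 2 rose, and all 3 listed DHX members fell. Shares of 3 in 5 are close to the share over all genes. On all 3 scales described below, the falls held for 7 of 7 SR, 16 of 18 hnRNP and PTB, 4 of 5 CELF, MBNL and QKI, 6 of 11 RBM, 7 of 12 DDX, 1 of 3 DHX, 2 of 5 U2 and branch site, 0 of 5 PRPF and 0 of 6 Sm and snRNP members. These last counts are to be read against 29.6% of all genes tested that were called lower on all 3 scales. The family counts carry no test of a difference between families. Transcript length also differed between the families, as given below.

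Levels were also summed over the listed genes of each family. Transcripts of unlisted members are not in these sums, so they do not give the change of a whole family. The listed hnRNP and PTB genes together reached 3605, 3654 and 3359 TPM in the 3 controls and 2197, 1970 and 2274 TPM after doxorubicin, which was 60.7% of the control mean. The 7 SR genes summed to 735, 778 and 726 TPM and to 461, 436 and 519 TPM, 63.3% of control. Both sums were thus lower in every doxorubicin library than in every control library. The 6 Sm and snRNP genes went from 1251, 1270 and 1290 TPM to 1358, 1389 and 1319 TPM, or 107% of control, which is close to the 109% of all genes tested, and SNRPD2, which was not called, made up most of that sum. Of the other families, the CELF, MBNL and QKI genes stood lowest at 55.8% of control, followed by RBM at 72.0%, DHX at 74.0%, DDX at 76.7%, PRPF at 89.7% and SRRM with LUC7L at 94.9%, and LSM stood at 106% and the U2 and branch site factors at 111%.

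**Figure D2:**
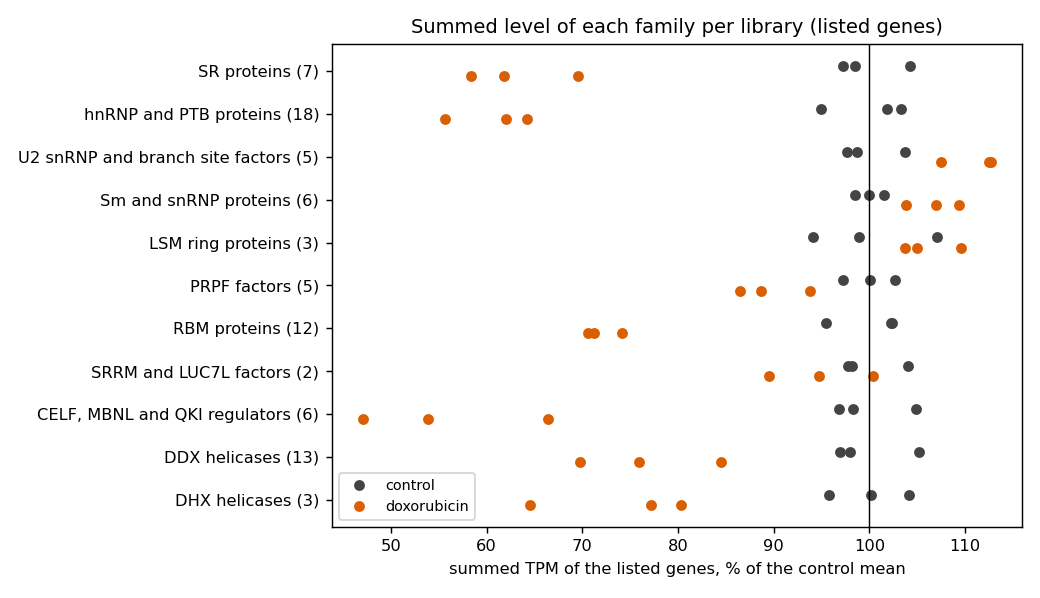
Each point is the summed TPM of a family's listed genes in 1 library, as a percentage of the mean of the 3 control libraries (horizontal axis), with families on the vertical axis. The doxorubicin points of the SR, hnRNP and PTB, RBM, PRPF, DDX, DHX and CELF, MBNL and QKI families all lie below the control points, and those of the Sm and snRNP family and the U2 and branch site factors lie above them.

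The SR proteins carry RNA recognition motifs and a tail rich in arginine and serine. SRSF3, the smallest of them and also an adaptor for mRNA export, was the most abundant at 183.38, 202.92 and 173.06 TPM in the control group and 99.97, 98.34 and 114.84 TPM in the doxorubicin group. Its groups were far apart, and it fell by 0.83 on the log2 scale (SE 0.08, adjusted p = 1.63e-05). SRSF1, which promotes use of nearby splice sites and was first known as ASF/SF2, had 89.53, 93.11 and 80.31 TPM against 46.29, 44.87 and 55.22 TPM. It fell by 0.84 on the log2 scale (SE 0.09, adjusted p = 4.03e-05), which differs from SRSF3 by less than the SEs, and after quantile normalization SRSF3 had the larger fall (-0.90 against -0.83). SRSF2, also called SC35, stood at 161 ± 0.56 TPM (SD, n = 3) and 108 ± 7.89 TPM, with a log2 fold change of -0.58 (SE 0.07). SRSF7 and TRA2B, an exon-inclusion factor related to the SR proteins, had log2 fold changes of -0.56 and -0.64. SRSF10 and SRSF11 changed least, with log2 fold changes of -0.44 and -0.50. All 7 were called lower on each of the 3 scales described below and with any single library left out.

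The hnRNPs coat nascent transcripts and act in splicing, stability and export. HNRNPA1, an abundant binder of UAG-containing silencers (chromosome 12, 54280193 to 54287088, GRCh38), had the highest level of the family. It was at 865.42, 834.32 and 784.61 TPM in the control group and 435.30, 434.60 and 428.17 TPM in the doxorubicin group. The 3 doxorubicin libraries differed little from one another (433 ± 3.93 TPM, SD, n = 3), at 52.2% of the control mean. The log2 fold change was -0.93 (SE 0.05, adjusted p = 2.75e-07). HNRNPC, which binds uridine tracts and competes with U2AF, had 482.82, 511.42 and 472.44 TPM against 285.31, 250.42 and 280.19 TPM, again without overlap, and fell by 0.85 (SE 0.06, adjusted p = 2.55e-06). HNRNPA2B1 went from 342 ± 14.1 to 229 ± 27.4 TPM and HNRNPK, a poly(C) binder, from 352 ± 18.7 to 216 ± 35.3 TPM, with log2 fold changes of -0.59 and -0.71. PTBP1, the polypyrimidine tract binding repressor, went from 103 ± 6.58 to 72.5 ± 3.18 TPM (log2 fold change -0.50). The largest fall belonged to HNRNPUL2, a low-level member, at 5.44, 10.54 and 8.67 TPM against 2.80, 1.63 and 5.13 TPM. Its log2 fold change of -1.18 had the widest error of the family (SE 0.31, adjusted p = 0.00837), and its highest doxorubicin library stood just under its lowest control library. In the annotation 45.7% of its exon bases are shared with the readthrough gene HNRNPUL2-BSCL2 on the same strand, so the authors' counting could have split its reads.

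The share of HNRNPA1 in the summed hnRNP and PTB level was 24.0%, 22.8% and 23.4% in the control libraries and 19.8%, 22.1% and 18.8% in the doxorubicin libraries. HNRNPC held 13.8% ± 0.37 and then 12.7% ± 0.335, HNRNPA2B1 9.68% ± 0.297 and then 10.6% ± 0.509, and HNRNPK 9.95% ± 0.244 and then 10.0% ± 0.963 (SD, n = 3). The shares of HNRNPA1 and HNRNPC were lower in all 3 doxorubicin libraries than in any control library, the share of HNRNPA2B1 was higher in all 3, and the share of HNRNPK overlapped between the groups.

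A single member of the family was higher. HNRNPA1L2 (chromosome 13, 52642425 to 52643796) is a single-exon copy of HNRNPA1 that carries the same reading frame, and its direction was the opposite of that of its parent. Its levels were 2.48, 2.23 and 2.75 TPM in the control group and 5.03, 4.08 and 4.15 TPM in the doxorubicin group. It rose by 0.63 on the log2 scale (SE 0.13, adjusted p = 0.00156). Aligned over the 960 coding bases of transcripts HNRNPA1L2-201 and HNRNPA1-203, the 2 genes differ at 15 positions, an identity of 98.4%, and the longest identical stretch is 174 bases. Reads were 150 bases long at each end, so some reads cannot be placed in 1 of them, and the value of the copy is uncertain.

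The DDX helicases hold a similar pair. DDX12P (chromosome 12, 9418673 to 9448229) is an unprocessed pseudogene of DDX11 (chromosome 12, 31073845 to 31104791), an iron-sulfur helicase of sister chromatid cohesion that works on DNA. DDX11 had 13.08, 11.65 and 14.66 TPM in the control group and 5.96, 4.07 and 7.02 TPM in the doxorubicin group, with no overlap. Its log2 fold change of -1.10 (SE 0.17, adjusted p = 0.000322) was the largest fall among the helicases. DDX12P was near zero throughout, at 0.36, 0.43 and 0.43 TPM against 0, 0.07 and 0.02 TPM, and was not tested. Over 2592 aligned bases the transcripts DDX12P-201 and DDX11-201 differ at 49 positions (identity 98.1%), beside 403 gap columns, and share an identical stretch of 284 bases. Part of the alignment is shown because it bears on which of the pair a read belongs to. The window is an ungapped stretch from the middle of the aligned part and was not picked for its differences. It covers bases 1510 to 1689 of DDX12P-201 and 1297 to 1476 of the coding sequence of DDX11, and the 3 differences are in capitals.
DDX12P: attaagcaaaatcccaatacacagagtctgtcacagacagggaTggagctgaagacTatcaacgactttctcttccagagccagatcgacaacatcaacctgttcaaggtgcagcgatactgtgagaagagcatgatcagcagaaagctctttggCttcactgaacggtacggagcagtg
DDX11: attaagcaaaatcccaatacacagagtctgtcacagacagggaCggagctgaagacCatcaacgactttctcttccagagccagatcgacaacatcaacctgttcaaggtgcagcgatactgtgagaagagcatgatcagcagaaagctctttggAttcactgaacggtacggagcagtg

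**Figure D3:**
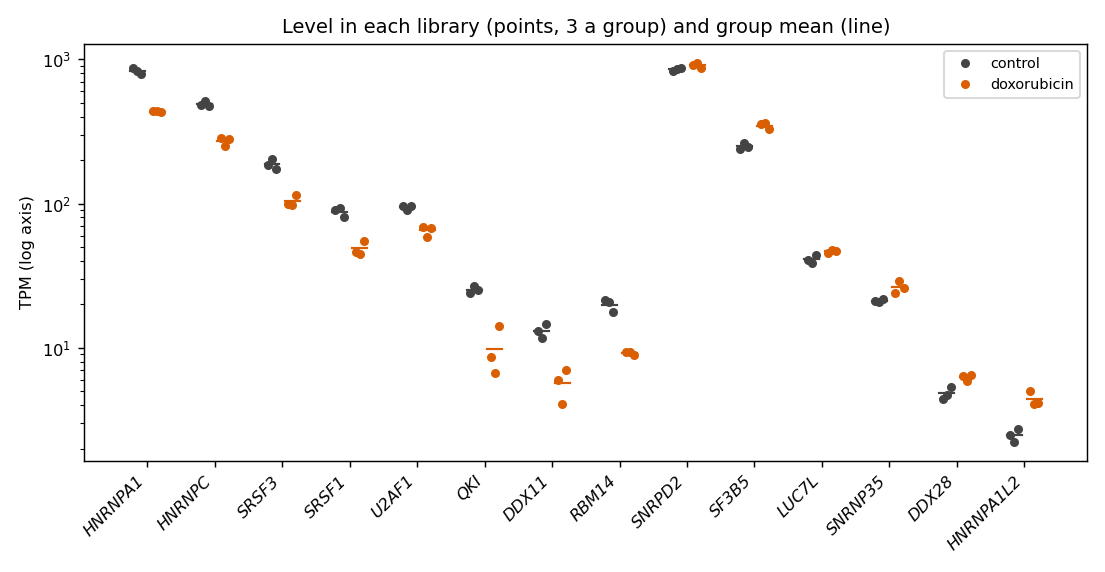
Points give the TPM of 14 members in each of the 3 control and 3 doxorubicin libraries on a log axis, and lines give the group means. HNRNPA1, HNRNPC, SRSF3 and QKI show separate groups with the doxorubicin group lower, SF3B5 and HNRNPA1L2 show the doxorubicin group higher, and the SNRPD2 groups lie close together.

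The regulators named for CELF, MBNL and QKI act on alternative exons in muscle, brain and mesenchymal cells. QKI, a KH-domain protein that binds quaking response elements and also promotes circular RNAs, had 24.02, 26.80 and 25.01 TPM in the control group and 8.69, 6.66 and 14.22 TPM in the doxorubicin group. It fell by 1.33 on the log2 scale (SE 0.21, adjusted p = 0.000497), more than any other of the 77 members tested on this scale, although with a pseudocount of 0.1 HNRNPUL2 fell as far (-1.43 against -1.42). Doxorubicin replicate 3 stood well above the other 2 of its group, and the fall ranged from 1.11 to 1.61 on the log2 scale when each library was left out. MBNL1, the muscleblind protein sequestered by CUG repeats in myotonic dystrophy, went from 35.8 ± 2.81 to 23.0 ± 2.42 TPM (log2 fold change -0.62, adjusted p = 0.000435). CELF1, which binds GU-rich elements, went from 21.2 ± 1.29 to 12.6 ± 2.48 TPM (log2 fold change -0.73, adjusted p = 0.000854). MBNL2 and CELF2 were lower too, with log2 fold changes of -0.75 and -0.54, and CELF2 was not called after quantile normalization (adjusted p = 0.158). CELF6 stayed below 1 TPM in all 6 libraries.

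The RBM proteins are a mixed group named only for an RNA-binding motif. RBM3, a cold-inducible protein, was the most abundant, with 322.68, 318.56 and 300.36 TPM in the control group and 203.98, 204.39 and 206.12 TPM in the doxorubicin group, a log2 fold change of -0.61 (SE 0.05, adjusted p = 7.24e-06). RBM14, a paraspeckle protein and coactivator, had the largest fall, from 21.54, 20.74 and 17.58 TPM to 9.41, 9.34 and 8.90 TPM (log2 fold change -1.03, SE 0.11, adjusted p = 2.85e-05). Both had tightly grouped doxorubicin libraries. RBM14 shares 14.6% of its exon bases with the readthrough gene RBM14-RBM4. RBM25, a U1-associated factor, went from 32.7 ± 3.67 to 23.7 ± 2.92 TPM (log2 fold change -0.45, adjusted p = 0.0048). RBM38 and RBM42 were not called, with log2 fold changes of 0.17 and 0.09, and RBM44 was below 1 TPM in all 6 libraries.

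The listed U2 and branch site factors did not all move in the same direction. SF3B5, the smallest protein of the SF3B complex (chromosome 6, 144094881 to 144095573), was at 238.31, 263.91 and 244.92 TPM in the control group and 353.65, 358.85 and 326.41 TPM in the doxorubicin group. It rose by 0.47 on the log2 scale (SE 0.06, adjusted p = 0.00011), with no overlap. SF3B3, a large scaffold of the same complex, had a log2 fold change of -0.18 (adjusted p = 0.0394), and its call was lost without control replicate 1, 2 or 3 or doxorubicin replicate 1 or 2 (adjusted p from 0.0543 to 0.137) and after median-of-ratios scaling (adjusted p = 0.854). SF3B6, the protein that contacts the branch adenosine, overlapped between the groups (log2 fold change 0.09, adjusted p = 0.217). U2AF1, the small subunit that reads the AG at the end of the intron, fell from 96.58, 90.32 and 96.68 TPM to 69.24, 58.59 and 67.48 TPM (log2 fold change -0.53, SE 0.08, adjusted p = 0.000223). U2SURP, a U2-associated SR-like protein, had a log2 fold change of -0.44 (adjusted p = 0.00543).

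Among the Sm and snRNP proteins, SNRPD2, a subunit of the Sm ring, had the highest level of all 80 members over the 6 libraries. It stood at 830.78, 855.33 and 871.31 TPM in the control group and 917.55, 942.12 and 872.80 TPM in the doxorubicin group. The highest control library lay just under the lowest doxorubicin library, and the log2 fold change of 0.09 was not called (SE 0.05, adjusted p = 0.104), although without doxorubicin replicate 3 it was (log2 fold change 0.13, adjusted p = 0.0378). SNRNP35, a protein of the U11/U12 particle of the minor spliceosome, rose from 21.01, 20.77 and 21.66 TPM to 24.16, 28.98 and 25.89 TPM (log2 fold change 0.30, SE 0.09, adjusted p = 0.0133). SNRPN, an imprinted gene for an SmB-like protein, rose from 105.65, 101.00 and 101.78 TPM to 124.89, 118.96 and 123.09 TPM (log2 fold change 0.25, SE 0.06, adjusted p = 0.00339), and it shares 10.3% of its exon bases with SNURF on the same strand. SNRNP48, another U11/U12 protein, fell at a low level from 4.42 ± 0.636 to 2.87 ± 0.348 TPM (log2 fold change -0.48, adjusted p = 0.00806). SNRNP200, the helicase that unwinds U4 from U6 and belongs to the U5 particle, went from 56.0 ± 2.34 to 47.1 ± 6.46 TPM. Its log2 fold change of -0.25 passed with an adjusted p of 0.0361 and was lost without control replicate 1 or 2 or doxorubicin replicate 1 or 2 (adjusted p from 0.0681 to 0.122). SNRPC, a U1 protein, was not called (log2 fold change 0.08). LSM1, LSM7 and LSM10 had log2 fold changes of 0.12, 0.06 and 0.15, none called, where LSM1 belongs to the cytoplasmic decay ring, LSM7 is shared by the decay and U6 rings and LSM10 belongs to the U7 ring of histone mRNA processing.

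PRPF8, the large protein at the heart of the catalytic centre, was the most abundant PRPF factor and changed little. It was at 97.71, 99.48 and 96.27 TPM in the control group and 88.85, 92.37 and 95.61 TPM in the doxorubicin group, with a log2 fold change of -0.08 (SE 0.06, adjusted p = 0.216). PRPF38A, which enters with the tri-snRNP before activation, fell from 9.32 ± 0.814 to 6.26 ± 1.04 TPM (log2 fold change -0.51, adjusted p = 0.00574). PRPF4B, a kinase of the same step, had a log2 fold change of -0.45 and PRPF39, a U1-linked factor, of -0.39, and PRPF39 lost its call without control replicate 1 or 2 or doxorubicin replicate 1 (adjusted p 0.068, 0.057 and 0.0513). PRPF40B was not called (log2 fold change 0.22, adjusted p = 0.186). SRRM1, a coactivator that bridges SR proteins, fell from 35.94, 42.15 and 32.13 TPM to 27.84, 22.01 and 31.01 TPM (log2 fold change -0.44, adjusted p = 0.0133), with an adjusted p of 0.0538 without control replicate 2 and 0.0569 after median-of-ratios scaling. LUC7L, a U1-associated factor of splice site choice, rose from 40.36, 38.74 and 43.87 TPM to 45.74, 47.64 and 47.00 TPM (log2 fold change 0.19, SE 0.08, adjusted p = 0.0406). Its call was kept only when control replicate 3 was the library left out, and the other 5 omissions gave adjusted p values from 0.0577 to 0.131.

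The helicases that fell span several tasks. DDX3X, a helicase of translation initiation, had the highest level of the DDX members, with 83.36, 97.00 and 78.27 TPM in the control group and 49.20, 40.79 and 58.20 TPM in the doxorubicin group (log2 fold change -0.80, SE 0.13, adjusted p = 0.000459). DDX21, a nucleolar helicase of ribosomal RNA, went from 27.7 ± 2.98 to 14.1 ± 2.11 TPM (log2 fold change -0.93). DDX17, a splicing and transcription cofactor, went from 70.6 ± 4.91 to 46.0 ± 6.84 TPM (log2 fold change -0.61), and DDX46, the PRP5 helicase of the U2 step, from 20.9 ± 2.17 to 14.9 ± 1.75 TPM (log2 fold change -0.46). None of these groups overlapped. DHX15, which takes the lariat spliceosome apart, fell from 61.88, 65.71 and 56.68 TPM to 42.02, 34.24 and 45.80 TPM (log2 fold change -0.59, SE 0.11, adjusted p = 0.000833). DHX9, RNA helicase A, had the highest level of the DHX members and the smallest fall, from 68.8 ± 1.04 to 56.4 ± 4.82 TPM (log2 fold change -0.29, adjusted p = 0.00676), close to the median of all genes tested. DHX33 had a log2 fold change of -0.57, which was -0.19 and not called after quantile normalization (adjusted p = 0.178).

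The 2 DDX members that rose did so narrowly. DDX28, a mitochondrial helicase of ribosome assembly encoded by a single exon, had 4.43, 4.72 and 5.34 TPM in the control group and 6.41, 5.85 and 6.44 TPM in the doxorubicin group (log2 fold change 0.31, SE 0.12, adjusted p = 0.0322). It lost its call without control replicate 1 or 2 or doxorubicin replicate 1 or 3, with adjusted p values from 0.0597 to 0.12, and shares 18.3% of its exon bases with DUS2 on the opposite strand. DDX59, named here after its values were seen, had overlapping groups at 6.39, 10.95 and 9.54 TPM and 13.77, 11.73 and 10.95 TPM (log2 fold change 0.42, SE 0.17, adjusted p = 0.045). It lost its call without control replicate 1 or 3 or doxorubicin replicate 1 or 2, with adjusted p values from 0.0517 to 0.182. DDX41, a helicase of the late spliceosome, and DDX56, a nucleolar helicase, were not called, with log2 fold changes of 0.14 and 0.11. Over the whole set of 77, 53 members were called lower with all libraries and with each left out in turn (68.8%, against 41.3% of all genes tested), and 4 were called higher throughout (5.19%, against 19.8%), which were HNRNPA1L2, SF3B5, SNRNP35 and SNRPN. Leaving out control replicate 1, or doxorubicin replicate 1, took the number called higher from 7 to 4. Over all genes tested the same omissions took it from 1611 to 1388 and 1336. RBM33 was the remaining member to lose its call for a fall, without control replicate 1 (adjusted p = 0.1) or doxorubicin replicate 1 (adjusted p = 0.0503).

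The direction of these changes was read on 3 scales, because TPM is relative to the whole library and the listed genes as a whole were more often lower than higher on the scale as deposited. Quantile normalization gives every library the same distribution of values and moved the median over all genes tested from -0.28 to -0.01 in log2 fold change. Median-of-ratios scaling divides each library by its median ratio to a common reference and moved it to -0.12. After quantile normalization 47 members were lower (61.0%, against 30.4% of all genes tested) and 9 were higher (11.7%, against 37.8%). After median-of-ratios scaling 52 members were lower (67.5%, against 42.9%) and 18 were higher (23.4%, against 43.4%). In all, 43 members were called lower on all 3 scales (55.8%, against 29.6%) and the same 7 were called higher on all 3 (9.09%, against 25.8%), and no member called on the deposited scale was called in the opposite direction on another. Median log2 fold changes of the members were -0.33 and -0.34 on the other scales.

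For some families the sign of the median depended on the scale. Medians of the SR family were -0.58, -0.62 and -0.39 on the deposited, quantile and median-of-ratios scales, and those of the hnRNP and PTB family were -0.59, -0.62 and -0.40, each below the median of all genes on the same scale. For the Sm and snRNP proteins they were 0.09, -0.05 and 0.28, and for the U2 and branch site factors -0.18, -0.16 and 0.01. LSM1, LSM7, LSM10, SNRPC, SNRPD2 and SF3B6, none of them called on the deposited scale, were called higher after median-of-ratios scaling (adjusted p from 0.00297 to 0.0366), and none of them was called after quantile normalization. PRPF40B and RBM38 were called higher on both other scales, and DDX41, DDX56 and RBM42 after median-of-ratios scaling only. PRPF8 was called lower after quantile normalization (log2 fold change -0.13, adjusted p = 0.0455) and had a log2 fold change of 0.11 after median-of-ratios scaling (adjusted p = 0.15). The fall was no longer called on another scale for 15 of the 58. Lost after quantile normalization only were CELF2, DDX60, DHX33, PRPF38A, PRPF4B, PTBP3, RBM12B, RBM41 and SNRNP48, with adjusted p values from 0.0639 (PRPF4B) to 0.441 (SNRNP48). Lost after median-of-ratios scaling only were DHX9, SF3B3 and SRRM1, with adjusted p values of 0.218, 0.854 and 0.0569. PRPF39 (adjusted p 0.25 and 0.0629), RBM33 (0.699 and 0.159) and SNRNP200 (0.0518 and 0.459) were called on neither other scale.

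**Figure D4:**
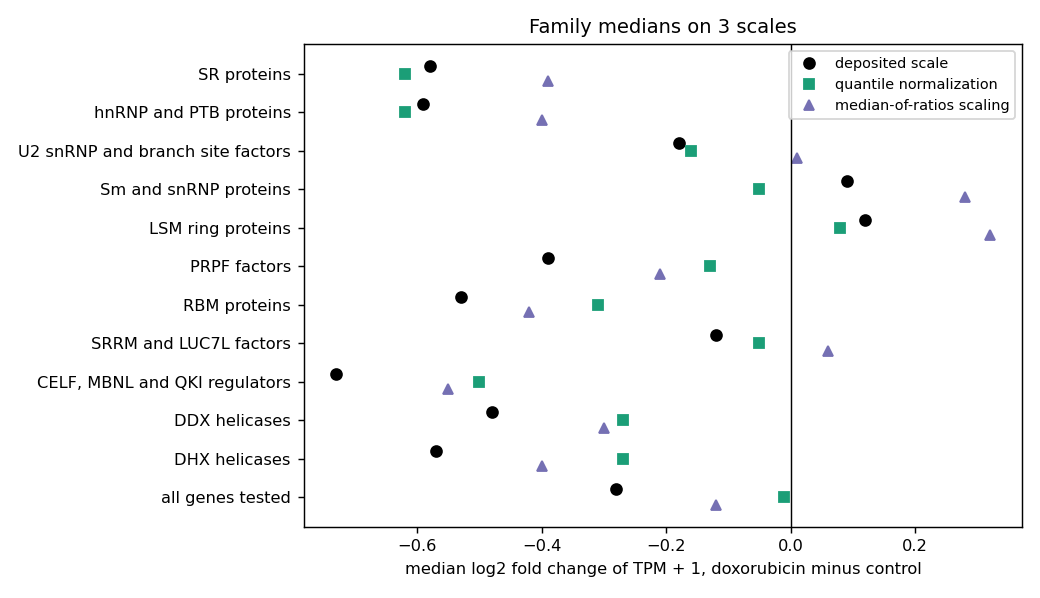
Symbols give the median log2 fold change of TPM + 1 (doxorubicin minus control, horizontal axis) of the tested genes of each family, and of all 5721 genes tested, on the deposited scale, after quantile normalization and after median-of-ratios scaling. The SR and hnRNP and PTB families lie left of all genes on each scale, and the symbols of the Sm and snRNP proteins lie on both sides of zero.

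The libraries of a group kept a common order across members. Among the 58 members that fell, doxorubicin replicate 2 was the lowest of its group in 51 (87.9%) and doxorubicin replicate 3 the highest in 46 (79.3%). For all genes that fell, the same libraries were lowest in 72.9% and highest in 77.8%. In the control group replicate 2 was highest in 35 of the 58 and replicate 3 lowest in 39. The order within a group was thus shared by many members, as it was by the listed genes as a whole.

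The members that fell had longer annotated transcripts than the others, a feature the choice by symbol did not use, and this held for the listed genes as a whole. The longest annotated coding transcript had a median of 4376 bases in the 58 that fell, 1975 bases in the 7 that rose and 1413 bases in the 12 not called. The 77 members were ranked by this length and cut into 4 bins of nearly equal size. Of the 20 shortest (575 to 2568 bases) 5 fell and 6 rose, with a median log2 fold change of 0.10. In the next bin (2579 to 3751 bases) 16 of 19 fell, and in the 2 bins of the longest transcripts 19 of 19 and 18 of 19 fell, with medians of -0.51 and -0.54. Over all genes tested, cut the same way, 11.5% fell and 62.6% rose in their shortest bin (75 to 1878 bases), and 77.4% fell and 5.47% rose in their longest (5461 to 33679 bases). In family medians over listed genes, this length was 850 bases for LSM, 1675 for U2 and branch site and 1957.5 for Sm and snRNP. It was 3054 for SRRM and LUC7L, 3117 for SR, 3679 for hnRNP and PTB and 3796 for DDX. It was 4240 for DHX, 4415 for PRPF, 5366.5 for RBM and 7062 for CELF, MBNL and QKI. The part of length in the differences between families was not tested. Spearman's rho between transcript length and log2 fold change was -0.394 across the 77 members and -0.497 across 5700 genes with an annotated transcript. These are correlations across genes, which share the 6 libraries and are not independent replicates. With the length of the gene on the genome, rho was -0.131 across the members and -0.441 across all genes. SF3B5, HNRNPA1L2, DDX28 and HNRNPA0 have 1 exon, and the first 3 of these were among the 7 that rose while HNRNPA0 fell (log2 fold change -0.53), with a transcript of 8726 bases.

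**Figure D5:**
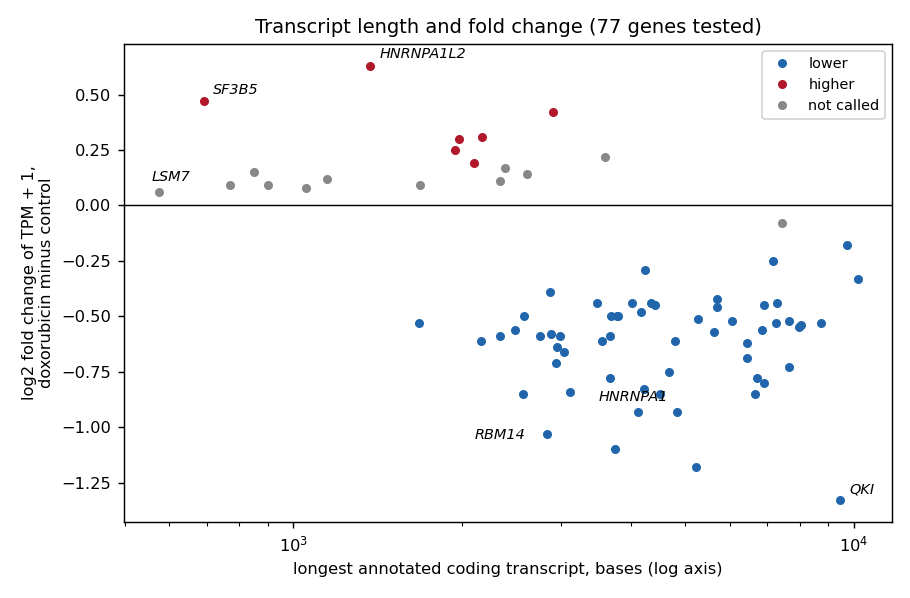
Each point is 1 of the 77 members tested, with the length of its longest annotated coding transcript in bases (log axis) on the horizontal axis and its log2 fold change of TPM + 1 on the vertical axis, coloured by call. The points at the left, among them LSM7, SF3B5 and HNRNPA1L2, lie above zero, and every point from 3784 bases upwards lies below it.

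Many splicing factor genes carry annotated transcripts that end in nonsense-mediated decay, a route by which SR proteins and hnRNPs are known to limit their own levels. At least 1 such transcript was annotated for 40 of the 58 members that fell (69.0%), 1 of the 7 that rose (14.3%) and 6 of the 12 not called (50.0%). Over all listed genes the shares were 43.1% of those that fell and 35.0% of those that rose. A transcript with a retained intron was annotated for 41 of the 58 (70.7%), 1 of the 7 (14.3%) and 7 of the 12 (58.3%), against 58.3% and 51.8% of all genes that fell and rose. Among the 7 that rose, SF3B5, HNRNPA1L2 and DDX28 have 1 exon and 1 annotated transcript and could hold neither kind, as could HNRNPA0, which fell. The median number of exons was 13 in the members that fell and 2 in those that rose, so these shares cannot be set apart from gene structure. The table gives 1 value per gene, so the levels of such transcripts were not analysed here. Of the 80 members, 8 share exon bases with another protein-coding gene on the same strand and 19 with a gene on the opposite strand, among them SRSF1 (59.0% with AC015813.2, same strand) and SRSF2 (34.7% with MFSD11, opposite strand). Whether the counting used strand is not given in the sources used here, so values of these genes are uncertain to that extent.

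The promoters of 68 members were found by symbol among the RefSeq promoters of GRCh38.p14, taking the first start listed for each gene. They are described by call, and for the SR and the hnRNP and PTB families, in which all 7 and 17 of 18 members fell. Promoters of the Sm and snRNP members were not counted apart. A match is a run of letters, not a bound site. In the 250 bases upstream of the start, on both strands, CCAAT was present in 33.0% of all 27305 promoters, in 42.9% of 49 members that fell, in 33.3% of 6 that rose and in 72.7% of 11 not called. It was present in 58.8% of the 17 hnRNP and PTB promoters and in 16.7% of the 6 SR promoters. An E2F-like motif, TTTCCCGC, TTTCGCGC, TTTGCCGC or TTTGGCGC, was present in 2.79% of all promoters and in 5 of the 49 members that fell (10.2%). It was present in none of the 6 that rose or the 11 not called, sets too small to read against 10.2%. The median GC content was 58.0% in all promoters, against 63.6%, 60.6% and 61.2% in members that fell, rose and were not called. All promoters include those of genes outside the deposited table. No difference in motif shares was tested. TATAAA was present in 11.1% of all promoters, in 8.16% of the members that fell, in 9.09% of those not called and in none that rose. Of the 6 SR promoters 2 held an E2F-like motif and 2 held TATAAA, and of the 17 hnRNP and PTB promoters 2 and 2. CCAAT was thus more frequent among the members not called than among those that fell.

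The 150 bases upstream of the RefSeq start are shown for HNRNPC and SRSF3, which fell, and for SF3B5, which rose, with CCAAT (or its complement ATTGG) and TATAAA in capitals. They lie at chr14:21269443-21269592 on the minus strand (HNRNPC), chr6:36594212-36594361 on the plus strand (SRSF3) and chr6:144095574-144095723 on the minus strand (SF3B5) of GRCh38.p14.
HNRNPC: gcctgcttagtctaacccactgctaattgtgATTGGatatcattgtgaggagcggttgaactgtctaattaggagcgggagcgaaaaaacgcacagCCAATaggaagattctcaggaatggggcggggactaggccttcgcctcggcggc
SRSF3: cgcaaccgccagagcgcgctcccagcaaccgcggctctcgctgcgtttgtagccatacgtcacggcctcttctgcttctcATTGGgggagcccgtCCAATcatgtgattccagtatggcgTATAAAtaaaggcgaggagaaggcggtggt
SF3B5: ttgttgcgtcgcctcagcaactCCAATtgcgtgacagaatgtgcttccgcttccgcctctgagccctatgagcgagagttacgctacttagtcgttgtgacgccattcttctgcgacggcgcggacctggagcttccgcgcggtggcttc
Each of the 3 holds CCAAT in some orientation, 2 times in HNRNPC and SRSF3 and 1 time in SF3B5, and SRSF3 holds TATAAA as well.

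Splicing genes under other names were followed with a list of 146 symbols, of which 47 were listed and tested. Of these, 25 fell (53.2%, against 48.7% of all genes tested), 8 rose (17.0%, against 28.2%) and 14 were not called, with a median log2 fold change of -0.38. Of the RNA-binding regulators among them 9 of 10 fell, with a median of -0.58. SFPQ, a paraspeckle protein, had 165.70, 161.83 and 156.33 TPM in the control group and 101.78, 104.00 and 118.06 TPM in the doxorubicin group (log2 fold change -0.58, SE 0.07, adjusted p = 6.87e-05). The Prp19 complex and the catalytic core went differently, with 2 of 11 lower, 2 higher and a median of 0.15, and of the 5 minor spliceosome genes none fell and 2 rose, ZCRB1 by 0.38 and ZMAT5 by 0.32 on the log2 scale. Both listed kinases of splicing factors fell, SRPK2 with a log2 fold change of -0.76 and DYRK1A with one of -0.67.

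In the SMN complex, which loads Sm rings onto small nuclear RNAs, GEMIN2 fell from 7.28, 6.65 and 7.83 TPM to 3.79, 3.85 and 3.70 TPM (log2 fold change -0.79, SE 0.11, adjusted p = 0.000238) and GEMIN8 rose from 19.67, 17.52 and 18.24 TPM to 26.32, 26.47 and 25.17 TPM (log2 fold change 0.47, SE 0.09, adjusted p = 0.00094). Neither gene had overlapping groups. Among helicases under other names, BRIP1, a DNA helicase of crosslink repair, went from 2.16 to 0.58 TPM (log2 fold change -1.0, adjusted p = 0.000192), and SUPV3L1, a mitochondrial RNA helicase, from 17.2 to 24.7 TPM (log2 fold change 0.50, adjusted p = 0.00244). Of the 5 genes of the early complexes 4 fell and 1 rose, and of the 5 exon junction and SR-related genes SON, SREK1 and SCAF8 fell and SAP18 rose by 0.43. SFPQ, GEMIN2, GEMIN8, BRIP1 and SUPV3L1 were called in the same direction on all 3 scales. After quantile normalization the whole list had 18 of 47 lower (38.3%, against 30.4% of all genes tested) and 13 higher (against 37.8% of all genes). After median-of-ratios scaling it had 21 lower (44.7%, against 42.9%) and 18 higher (against 43.4% of all genes). The share lower on that last scale was close to the share over all genes.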

How the data were processed

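RNA of WI-38 cells was sequenced from both ends over 150 bp, and 6 of the 9 libraries of the series (3 control, 3 doxorubicin) were analysed. The authors mapped and quantified the reads and deposited 1 value per gene and library, read here as TPM (scaled to transcript length and library total), since the column names give no unit. FPKM would differ from TPM by 1 factor per library, which the scale alternatives cover. The submitters' processing notes name CASAVA, HISAT2, StringTie, RSEM, DESeq2 and edgeR without versions, and the build GRCm38, which is a mouse build, while the gene IDs are human Ensembl IDs. The build behind the human values is not given in the sources used here. Every gene in the deposited table is past a fold change of 1.2 and p of 0.05 in the authors' own comparison columns. Those folds were not the ratios of the deposited values, in which some listed genes (PRPF8, for one) change by less. The columns of fold changes, p-values, directions and group means were used for nothing else.

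The 5721 of 6499 genes that averaged 1 TPM or more over the 6 libraries were tested with limma 3.58.1 (R 4.3.3) on log2(TPM + 1), with trend and robust moderation and Benjamini-Hochberg adjustment over all genes tested. Fold changes on this scale understate those of low genes. Tested on simulated data of the same 5721 genes, the fit recovered 4 of 50 genes changed 1.2-fold, 40 of 50 changed 1.5-fold, 48 of 50 changed 2-fold and 50 of 50 changed 3-fold, and called 10 unchanged genes. The changed genes were drawn only from those with a control mean above 2 on log2(TPM + 1). Far fewer genes changed there than were called in the data (2788 lower and 1611 higher). These rates therefore do not carry over to the data or to low genes. Alternatives were quantile normalization, median-of-ratios scaling, a pseudocount of 0.1, no filter, a minimum of 5 TPM, other call rules, the replicate number as a block, moderation without trend and robust, and leaving out each library. Positions, transcripts and exon overlaps came from GENCODE 29 (GRCh38) by Ensembl ID, which held 6462 of 6499 genes and all 80 members. Promoters came from RefSeq (GRCh38.p14) by symbol.

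The members and the lists of other splicing genes and cell markers were chosen with earlier results of these data known. In each family the members named were those with the largest rise and fall called without overlap, the most abundant, textbook core members, and those whose call changed with the scale. In the list of other splicing genes they were the 2 largest rises and the 2 largest falls. Other genes named were chosen after their values were seen.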

Additional observations from a re-analysis of the deposited data

How the results depend on the processing

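The number of members called lower stayed within 1.5 times of 58 under every alternative run (47 after quantile normalization to 59 without a filter), and leaving out each library gave 54 to 58. The number called higher was 7 and became 18 after median-of-ratios scaling, 4 with the replicate number as a block and 4 to 7 with each library left out. Over all genes tested, leaving out each library gave 2523 to 2821 lower and 1336 to 1557 higher, against 2788 and 1611 with all libraries. Of the 47 other splicing genes, the number called higher went from 8 to 13 after quantile normalization and to 18 after median-of-ratios scaling. The shares of all genes tested called higher were 28.2%, 37.8% and 43.4% on these 3 scales. Quantile normalization gave a median log2 fold change of -0.33 for the members, -0.05 for the Sm and snRNP proteins (reversed from 0.09), 0.08 for the LSM ring, -0.13 for PRPF, -0.31 for RBM, -0.27 for DDX and -0.27 for DHX. Median-of-ratios scaling gave -0.34 for the members, -0.39 for SR, -0.40 for hnRNP and PTB, 0.01 for the U2 and branch site factors (reversed from -0.18), 0.28 for Sm and snRNP, 0.32 for LSM, -0.21 for PRPF, 0.06 for SRRM and LUC7L (reversed from -0.12), -0.30 for DDX and -0.40 for DHX. The same scalings moved the median of all genes tested from -0.28 to -0.01 and -0.12, and the cause of the reversals was not tested. The call at all genes was 1611 higher and 2788 lower on the deposited scale, 2162 and 1737 after quantile normalization and 2484 and 2452 after median-of-ratios scaling.

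Same-numbered libraries did not deviate together (r of -0.063, -0.193 and -0.230 across genes), so the numbers were not taken to pair the samples. With the replicate block, 56 members were lower and 4 higher, and over all genes tested 2672 were lower and 1372 higher. The calls of LUC7L, DDX28 and DDX59 for a rise (adjusted p 0.0972, 0.0819 and 0.0574) were lost with the block. So were those of SF3B3 and RBM33 for a fall (0.0896 and 0.0655). Of 40 named genes, 34 kept direction and call after quantile normalization and 34 after median-of-ratios scaling, and those that changed sign without a call on either scale were SNRPD2 and LSM7 in the first and PRPF8 in the second. Without trend and robust moderation, LUC7L and SNRNP200 were not called (adjusted p 0.0637 and 0.0701). Read depth is unknown and limits the low genes most.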

Other observations

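The table also listed 4 noncoding RNAs whose hyphenated symbols placed them outside the choice of members. DDX59-AS1 was at 0.11, 0.20 and 0.23 TPM in the control group and 0.92, 1.72 and 0.69 TPM in the doxorubicin group, while DDX59 itself was at 8.96 and 12.2 TPM on average. SRRM2-AS1 was at 0.39, 0.56 and 0.46 TPM and 0.81, 0.83 and 0.71 TPM. RBM12B-AS1 was at 0.14, 0.48 and 0.71 TPM in the control group and was listed at 0 in all 3 doxorubicin libraries, where RBM12B stood at 0.86, 0.72 and 1.11 TPM. The first 3 were below the minimum of 1 TPM and were not tested. MBNL1-AS1 overlapped between the groups at 3.73, 3.43 and 4.33 TPM and 3.37, 4.96 and 5.18 TPM (limma log2 fold change 0.18, adjusted p = 0.305), although after quantile normalization it was called higher (0.56, adjusted p = 0.013), while MBNL1, with which it shares 1033 exon bases on the opposite strand, was called lower on all 3 scales.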
